A study of Mus musculus with 4 samples.

Results

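Interferon-high luminal cells are cells of mouse mammary organoids with luminal RNA and a high level of Ifit3, an antiviral protein gene that interferons induce. They were chosen by 5 genes and by quality. A cell had to hold 1000 to 6000 detected genes and under 5% of its unique molecular identifiers (UMIs, each standing for 1 captured RNA molecule) on mitochondrial genes. It had to lie under 300 CPM (UMIs of a gene for each 1000000 gene UMIs of the cell) for the basal keratin Krt14, under 300 CPM for Areg, a ligand of hormone-responsive luminal cells, and under 50 CPM for Tmigd1 and Sez6 together, which mark another luminal group. Such cells were taken as luminal, and those with at least 1000 CPM of Ifit3 as interferon-high. The choice gave 352 cells, of 11333 luminal cells and 33268 cells in all. They were compared with 8366 interferon-low luminal cells, which met the same limits with under 300 CPM of Ifit3, within the same library. The 2615 luminal cells between the limits were left out of the comparison. Ifit3 chose the members, so its level is a description. Ifit2, Rsad2, Gbp5 and Gm4841 were named as markers of these cells from the same data, and their values are also given without a test and left out of the counts of gene groups.

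The organoids were grown from mammary glands of aged virgin female mice that carry a truncating germline allele of Brca2 beside a wild-type allele (Brca2mut/WT), present in every cell of the animal, or from wild-type littermates (WT). They were kept as controls or exposed to hydroxyurea (HU), which depletes deoxynucleotides and slows replication forks. Each of the 4 libraries stood for 1 condition, WT control, WT HU, Brca2mut/WT control and Brca2mut/WT HU. All were cultured, dissociated to single cells and measured by droplet RNA sequencing. The labels give 2 replicates in each library and do not say which cell came from which, nor the passage of a cell; since the study worked with early and late passages, a library may hold cells of either. Each library also holds 4 antibody tags without a key, which were used as unlabelled pools. The libraries held 9358, 8158, 8113 and 7639 cells in that order, with 302135155, 258821284, 243430259 and 258118001 gene UMIs. Values given below in sets of 4 follow this order. With 1 library for each condition, no difference between genotypes or treatments was tested, and intervals on shares (Clopper-Pearson) and on sums of UMIs (exact Poisson) are 95% intervals that cover counting error only.

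Type I and type III interferons bind receptors on epithelial cells and start a kinase cascade that switches on the interferon-stimulated genes. Interferon-gamma acts through another receptor on an overlapping set. The products include proteins that block viral RNA and its translation (IFIT, OAS, viperin), GTPases that attack the membranes around intracellular pathogens, and the machinery that loads peptides on MHC class I. Interferon regulatory factors and other activated factors bind short DNA motifs near the start of these genes. In the mammary gland the luminal cells without hormone receptors (HR-) are the precursors of milk-producing alveolar cells.

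The promoters of 5 interferon genes described below are shown because they hold the motif of the interferon regulatory factors; they were picked from 16 genes searched, of which 7 did not hold it. The bases from -200 to -51 relative to RefSeq's gene start are given for Ifit3, Ifit1, Rsad2, Gbp5 and Isg15, in RefSeq's sequence of build GRCm38.p6, 5′ to 3′ on the strand of the gene. Capitals mark the 4-base blocks of the motif GAAANNGAAA or of its opposite strand TTTCNNTTTC, the form bound by interferon regulatory factors. The regions are chr19:34583329-34583478 on the plus strand for Ifit3, chr19:34640689-34640838 plus for Ifit1, chr12:26456503-26456652 minus for Rsad2, chr3:142496734-142496883 plus for Gbp5 and chr4:156200869-156201018 minus for Isg15.
Ifit3: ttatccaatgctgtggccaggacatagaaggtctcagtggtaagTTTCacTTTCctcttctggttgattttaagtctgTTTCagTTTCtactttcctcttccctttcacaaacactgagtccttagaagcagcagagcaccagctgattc
Ifit1: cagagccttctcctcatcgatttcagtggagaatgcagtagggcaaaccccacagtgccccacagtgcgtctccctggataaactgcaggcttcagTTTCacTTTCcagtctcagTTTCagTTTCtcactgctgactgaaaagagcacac
Rsad2: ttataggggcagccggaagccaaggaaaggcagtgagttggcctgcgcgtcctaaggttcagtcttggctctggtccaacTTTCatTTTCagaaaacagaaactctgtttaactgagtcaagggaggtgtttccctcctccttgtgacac
Gbp5: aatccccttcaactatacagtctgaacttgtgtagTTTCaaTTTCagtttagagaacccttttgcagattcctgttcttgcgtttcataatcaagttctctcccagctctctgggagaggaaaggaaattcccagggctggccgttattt
Isg15: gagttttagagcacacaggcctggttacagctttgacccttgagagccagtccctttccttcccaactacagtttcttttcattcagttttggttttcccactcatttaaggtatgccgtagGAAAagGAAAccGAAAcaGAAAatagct
Ifit3 and Ifit1 each held 2 matches, Rsad2 and Gbp5 held 1, and Isg15 held 3, of which neighbours overlap. For Gbp5 RefSeq's start lies inside the gene's span in the annotation used for its coordinates below. Searched on both strands over the 250 bases before each start, the motif was in 978 of 32851 promoter windows of the table (2.98%). The letters were not in the windows of Ifit2, Cmpk2, Oasl1, Oasl2, Irf7, Psmb9 or Tap1, which says nothing of other forms of the motif or of sites farther away. A share over all genes that rose is not given, because 533 of 681 (78.3%) had an entry in the table.

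The members were a small share of the luminal cells, and the share was larger in the Brca2mut/WT libraries. They made up 79 of 3547 luminal cells in WT control (2.23%, interval 1.77 to 2.77), 67 of 3170 in WT HU (2.11%, 1.64 to 2.68), 117 of 2510 in Brca2mut/WT control (4.66%, 3.87 to 5.56) and 89 of 2106 in Brca2mut/WT HU (4.23%, 3.41 to 5.18). The intervals of the WT libraries lay below those of the Brca2mut/WT libraries, while control and HU overlapped within each genotype. In all, 129 barcodes were found in more than 1 library, and 1 member carried such a barcode.

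The difference in share moved with the depth of the cells. Of the members, 148 of 352 (42.0%) held fewer than 10000 UMIs, against 511 of 8366 (6.11%) of the interferon-low cells. These shallow members were 21.5% and 25.4% of the members of WT control and WT HU, and 53.8% and 57.3% of those of Brca2mut/WT control and Brca2mut/WT HU. Among luminal cells of at least 10000 UMIs the shares were 1.84%, 1.70%, 2.42% and 2.03%, and the intervals of all 4 libraries overlapped (1.41 to 2.35, 1.26 to 2.23, 1.82 to 3.14 and 1.44 to 2.77). Among luminal cells under 10000 UMIs they were 17 of 176 (9.66%), 17 of 226 (7.52%), 63 of 277 (22.7%) and 51 of 233 (21.9%), with intervals of 5.73 to 15.0, 4.44 to 11.8, 17.9 to 28.1 and 16.8 to 27.8. The gap between the WT and the Brca2mut/WT libraries was thus present within the shallow cells, beyond the counting error of cells. Shallow members held medians of only 5, 5, 6 and 6 Ifit3 UMIs, and the intervals leave out the error of that small count. With 1 library for each condition, genotype and library cannot be told apart for this gap.

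**Figure D1:**
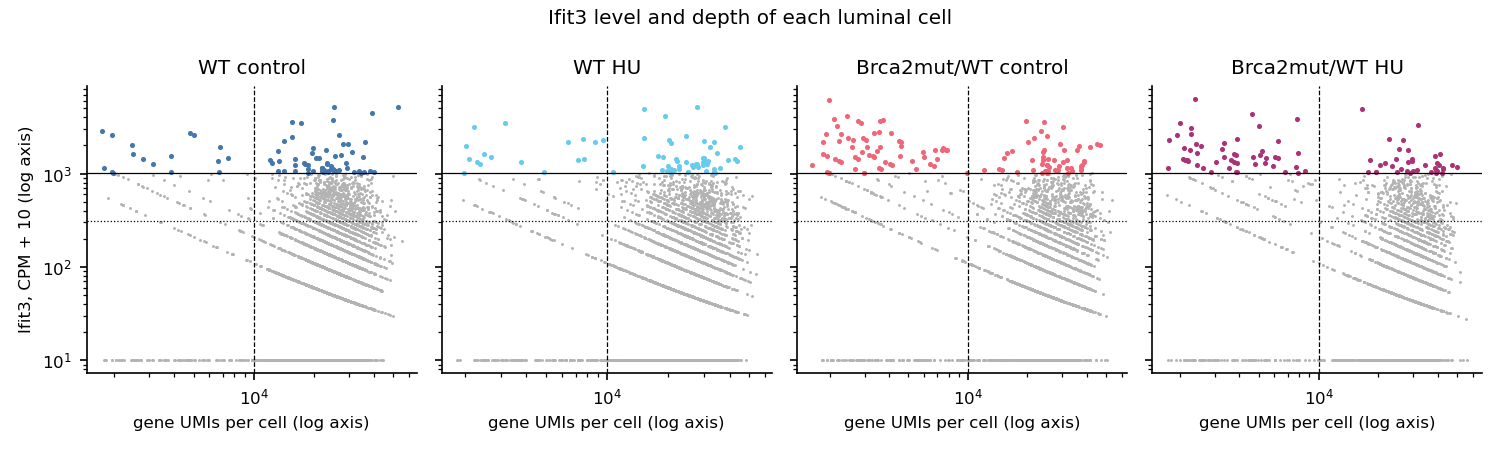
Each point is a luminal cell of 1 library, placed by its gene UMIs (log axis) and its Ifit3 level as CPM + 10 (log axis); coloured points are the interferon-high cells, the solid and dotted lines stand at 1000 and 300 CPM and the dashed line at 10000 UMIs. The members form the upper end of a continuous cloud at high depth, and another group lies to the left of the dashed line, with 17, 17, 63 and 51 members in the 4 libraries.

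**Figure D2:**
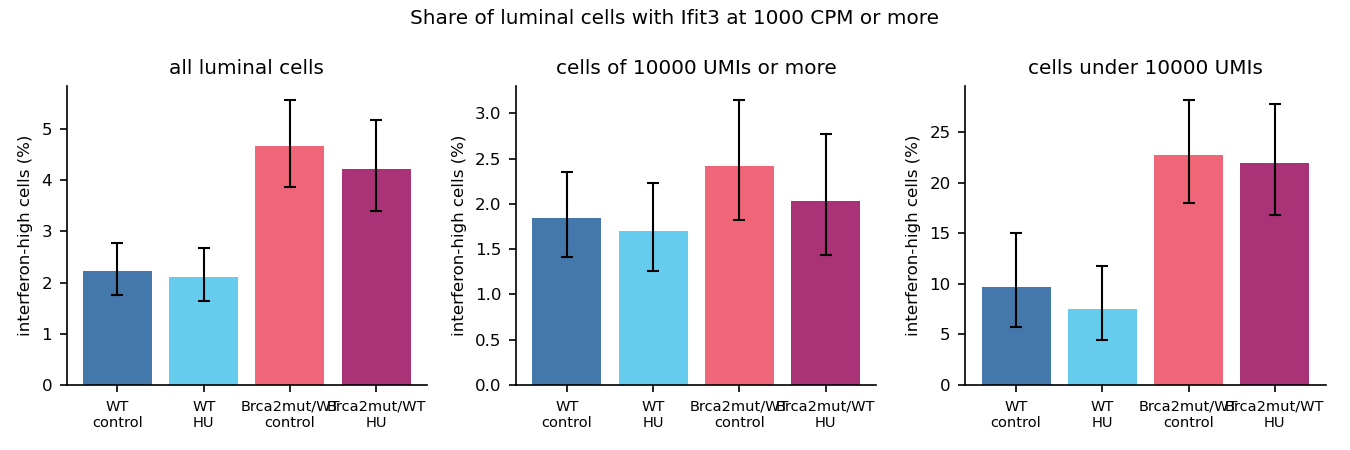
Bars give the interferon-high share of luminal cells in percent for each library, over all luminal cells, those of at least 10000 UMIs and those under 10000 UMIs, with 95% Clopper-Pearson intervals. The shares of deep cells lie between 1.70% and 2.42% with overlapping intervals, and those of shallow cells between 7.52% and 22.7%.

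Shallow members differed from deep ones in more than depth. Their median was 3151, 3152, 3148 and 3611 UMIs, against 23233, 26800, 25480 and 29583.5 in the deep members. The median share of mitochondrial UMIs was 0.209%, 0.192%, 0.157% and 0.183% in shallow members and 3.16%, 2.98%, 3.11% and 3.29% in deep ones, and shallow interferon-low cells were also low, at 0.197% to 0.317%. Malat1, a nuclear non-coding RNA, was at 2312, 2798, 1614 and 1378 CPM in shallow and 16741, 13267, 14614 and 13183 CPM in deep members. Both the mitochondrial share and Malat1 were thus far lower in shallow members. Malat1 was at 6629, 2007, 13452 and 2859 CPM in interferon-low cells matched to the shallow members in depth, above the members in 3 libraries and below them in WT HU. Over all shallow interferon-low cells it was at 7809, 11987, 12212 and 6050 CPM, above the shallow members in every library. An antibody tag could be assigned to 193 of 204 deep members (94.6%) and to 23 of 148 shallow ones (15.5%). Epcam, an adhesion molecule of all epithelial cells, was at 628, 829, 549 and 438 CPM in shallow and 1800.4, 1764, 1363 and 1460.5 CPM in deep members, while Krt18, a keratin of simple epithelia, was at 1943 to 2409 CPM in the shallow ones. The part of these features in the Ifit3 level was not tested.

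The interferon genes themselves were high in shallow and deep members. Isg15, a ubiquitin-like protein that is attached to other proteins after interferon, was at 1623, 2034, 1965 and 1782 CPM in shallow members, 1693, 2153, 1947 and 1753 CPM in deep ones and 392, 502, 491 and 697 CPM in shallow interferon-low cells. Ifit1, which binds viral RNA caps, was at 429, 389, 363 and 433 CPM in shallow members, 849, 832, 819 and 667 CPM in deep ones and 84.9, 73.6, 84.7 and 116 CPM in shallow interferon-low cells. Isg15 hardly differed with depth, and Ifit1 was lower in shallow than in deep members but above the shallow interferon-low cells in every library.

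The tag pools within a library differed in share too, not in the same order in each. In Brca2mut/WT HU, 9 of 44 cells with tag 2 (20.5%, 9.80 to 35.3) and 10 of 108 with tag 4 (9.26%, 4.53 to 16.4) stood above 16 of 892 with tag 1 (1.79%, 1.03 to 2.90) and 11 of 793 with tag 3 (1.39%, 0.694 to 2.47). In WT control tag 1 was the lowest (14 of 1566, 0.894%) and tag 4 the highest (10 of 206, 4.85%), with tag 3 at 2.67% and tag 2 at 1.47% (1 of 68 cells). Tag 2 lay above tag 4 in the other libraries, at 3.05% against 2.15% in WT HU and 9.38% against 6.59% in Brca2mut/WT control, each with overlapping intervals. There tags 1 and 3 were at 1.29% and 1.53% in WT HU and at 2.13% and 1.20% in Brca2mut/WT control. Tags 2 and 4 thus lay above tags 1 and 3 in every library but WT control, where tag 2 lay below tag 3. All intervals overlapped in WT HU. In Brca2mut/WT control that of tag 4 (4.27 to 9.65) lay above those of tag 1 (1.29 to 3.31) and tag 3 (0.602 to 2.14). Among cells of at least 10000 UMIs in Brca2mut/WT HU, tag 2 was at 5 of 22 (22.7%, 7.82 to 45.4) and tag 4 at 5 of 96 (5.21%, 1.71 to 11.7), against 15 of 883 (1.70%, 0.954 to 2.79) with tag 1, so that tag 4 then overlapped tag 1 and tag 2 did not. Among such cells of Brca2mut/WT control, tag 4 was at 21 of 355 (5.92%, 3.70 to 8.90). That interval lay above those of tag 1 (2.05%, 1.22 to 3.21) and tag 3 (1.23%, 0.618 to 2.20). What the tags stand for was not stated.

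The limit on Ifit3 cut a continuous range. The members closest to it held 1000, 1001.26 and 1001.94 CPM, the nearest cells outside it 998.004, 997.208 and 995.615 CPM, with 79 members at 1000 to 1100 CPM and 99 luminal cells at 900 to 1000. A member could rest on as few as 2 Ifit3 UMIs, and the median over all members was 23. By library it was 5, 5, 6 and 6 in shallow members and 29, 35.5, 36 and 42 in deep ones. Of the members, 271 lay between 1000 and 2000 CPM and 81 at 2000 CPM or more. The members were thus cut from a range, and whether they hold a separate type of cell was not tested.

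Along that range the interferon genes separated into those that climbed step by step and those that were nearly absent below the limit. Isg15, over all libraries, was at 314 CPM in luminal cells without an Ifit3 UMI, 536 CPM in those above 0 and under 300 CPM of Ifit3, 974 CPM at 300 to 1000, 1690.0 CPM at 1000 to 2000 and 2758 CPM at 2000 or more. Ifit1 went from 64.4 through 144, 316 and 600.2 to 1469 CPM over the same 5 bins, and Usp18, a protease that removes ISG15 and restrains the receptor, from 34.3 through 49.6, 88.7 and 180.2 to 488 CPM. Irf7, a regulatory factor that amplifies interferon genes, went from 376 to 592, 809 and 1015 CPM and then to 955 CPM, so that its last 2 bins had overlapping intervals (988 to 1044 and 898 to 1014). Rsad2 (viperin, which makes a chain-terminating nucleotide) went from 6.31 through 12.2, 35.2 and 124 to 1117 CPM, and Ifit2, another IFIT protein, from 2.54 through 3.47, 7.53 and 38.7 to 371 CPM. Gbp5, a guanylate-binding protein, was at 0.442, 0.387 and 0.866 CPM in the first 3 bins and at 5.85 and 67.5 CPM in the last 2. Gm4841, an immunity-related GTPase gene, was at 0.0841, 0.147 and 0.757 CPM and then at 9.88 and 160.2 CPM. The levels of Rsad2, Ifit2, Gbp5 and Gm4841 thus climbed most in the last bin over all libraries. In the 17 cells of that bin in Brca2mut/WT HU, however, Rsad2 was at 146 CPM and Ifit2 at 48.7 CPM, far below the other libraries, and Gbp5 and Gm4841 had no UMI.

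**Figure D3:**
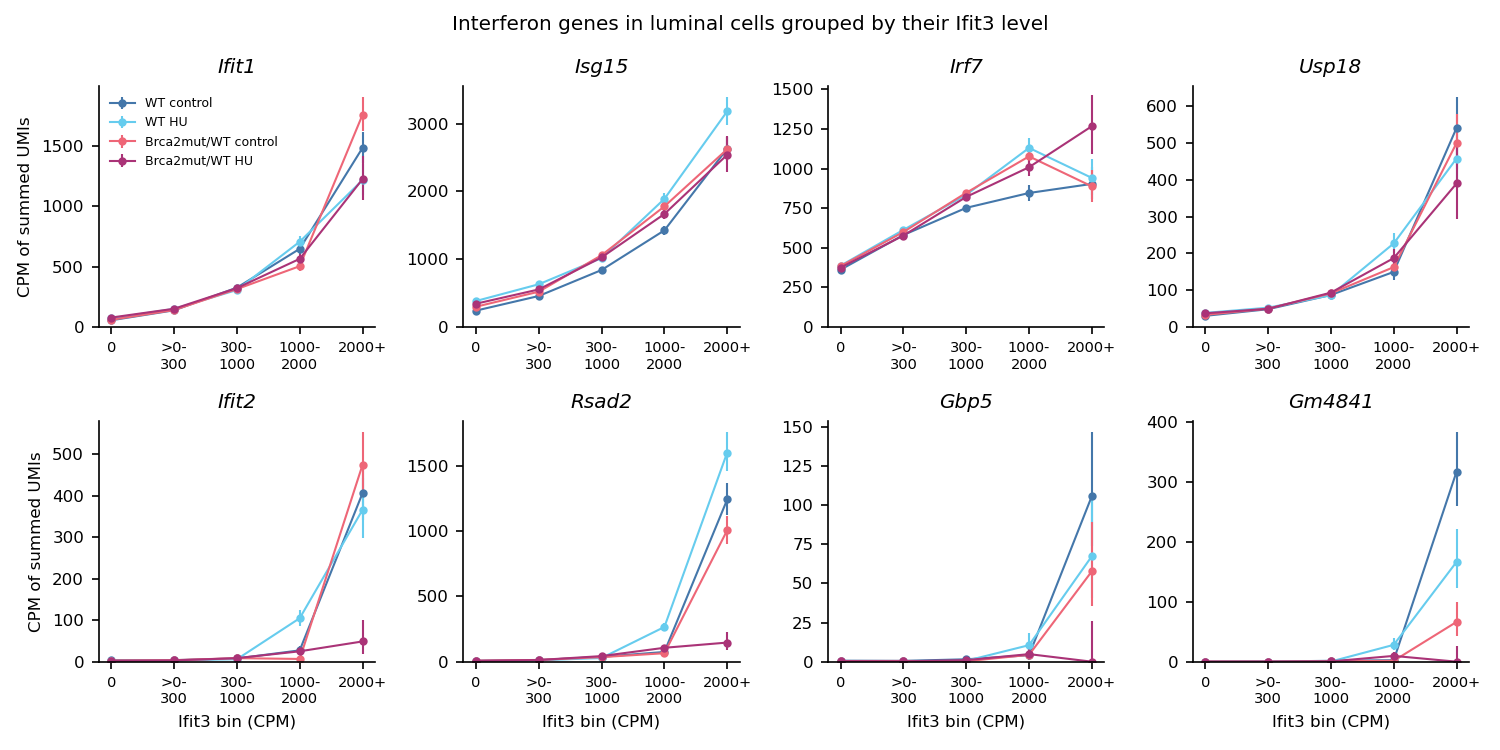
Each panel gives the CPM of a gene (UMIs summed over cells) against the Ifit3 bin of the luminal cells, with a line for each library and 95% Poisson intervals. Isg15, Ifit1 and Usp18 climb through all 5 bins over all libraries, while Gbp5 and Gm4841 stay under 1 CPM up to 1000 CPM of Ifit3 and reach 67.5 and 160.2 CPM in the last bin.

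Ifit3 (ENSMUSG00000074896, chr19:34583531-34588731, plus strand) was at 1703, 1626, 1587 and 1429 CPM in the members and at 102, 94.1, 98.0 and 94.96 CPM in the interferon-low cells, as the rule set it. Its neighbour Ifit3b shares 27 of 511 windows of 90 bases with the end of Ifit3, so a small part of their reads could be split between them. Rsad2 (chr12:26442746-26456452, minus strand) was at 330.1, 531, 254 and 111 CPM in the members and at 11.1, 9.22, 12.02 and 11.5 CPM in the interferon-low cells, a log2 ratio of CPM + 1 of 4.48 ± 1.06 (SD, n = 4 libraries). Ifit2 (chr19:34550694-34576419, plus strand) was at 110.2, 156, 101 and 27.5 CPM against 3.66, 3.03, 3.40 and 2.81 CPM, a log2 ratio of 4.32 ± 1.01. The members of Brca2mut/WT HU were the lowest for both genes and those of WT HU the highest. The Poisson interval of Rsad2 in Brca2mut/WT HU (93.7 to 129 CPM) lay far below that in WT HU (494 to 570.1 CPM). Both intervals leave out the spread between cells, and a few cells held much of this RNA. Gbp5 (chr3:142493978-142522344, plus strand) was at 26.4, 21.9, 15.1 and 4.33 CPM against 0.551, 0.289, 0.448 and 0.264 CPM, from 41, 31, 26 and 6 UMIs in the members. Gm4841 (chr18:60268305-60273272, minus strand) was at 71.6, 55.7, 14.5 and 8.67 CPM against 0.122, 0.119, 0.134 and 0.168 CPM, from 111, 79, 25 and 12 UMIs. For all 4 genes the members lay above the interferon-low cells in each library. That is a description, since the genes were named as markers from these data. The level among members differed many-fold between libraries, lowest in Brca2mut/WT HU.

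A few members carried a large part of these UMIs. Rsad2 was seen in 149 of 352 members (42.3%; 41, 42, 40 and 26 by library), Ifit2 in 84, Gbp5 in 26 and Gm4841 in 26, while Isg15 was seen in 341 (96.9%) and Ifit1 in 305. The 5 members with the most UMIs of a gene held 36.1% of all Rsad2 UMIs, 41.6% for Ifit2, 46.2% for Gbp5 and 60.4% for Gm4841, against 6.86% for Isg15 and 12.8% for Ifit1. Among the 204 members of at least 10000 UMIs, Rsad2 was seen in 135, Ifit2 in 74, Gbp5 in 25 and Gm4841 in 26. Ifit2, Gbp5 and Gm4841 were thus seen in a minority of the members, also of the deep ones. Rsad2 was seen in most of the deep members. The members with these RNAs overlapped. Rsad2 was also held by 24 of the 26 members with Gbp5, 24 of the 26 with Gm4841 and 59 of the 84 with Ifit2. Both Gbp5 and Gm4841 were held by 17 members. Among deep members, 23 of 25 with Gbp5, 24 of 26 with Gm4841 and 58 of 74 with Ifit2 held Rsad2. In all, 135 of the 204 deep members did. All 26 members with Gm4841 and 25 of the 26 with Gbp5 were of at least 10000 UMIs, where a rare RNA is more easily seen.

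To remove depth, each cell was thinned to 2000 UMIs, which left out 19 shallower members. Isg15 then had a UMI in 89.8% of 333 members and 51.3% of 8350 interferon-low cells, and Ifit1 in 59.5% and 20.01%. Rsad2 had a UMI in 14.1% (10.6 to 18.3) of members and 1.90% (1.62 to 2.22) of interferon-low cells, Ifit2 in 6.91% and 0.743%, Gbp5 in 1.502% and 0.0479%, and Gm4841 in 2.70% and 0.0240%. No cell class is known to lack these genes, and cells with at least 300 CPM of Krt14, another lineage with a median of 20379 UMIs against 17976 in the members, had Isg15 in 44.5%, Ifit1 in 13.3%, Rsad2 in 1.26% and Ifit2 in 0.865% after thinning. The shares in members stayed above both at equal depth.

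**Figure D4:**
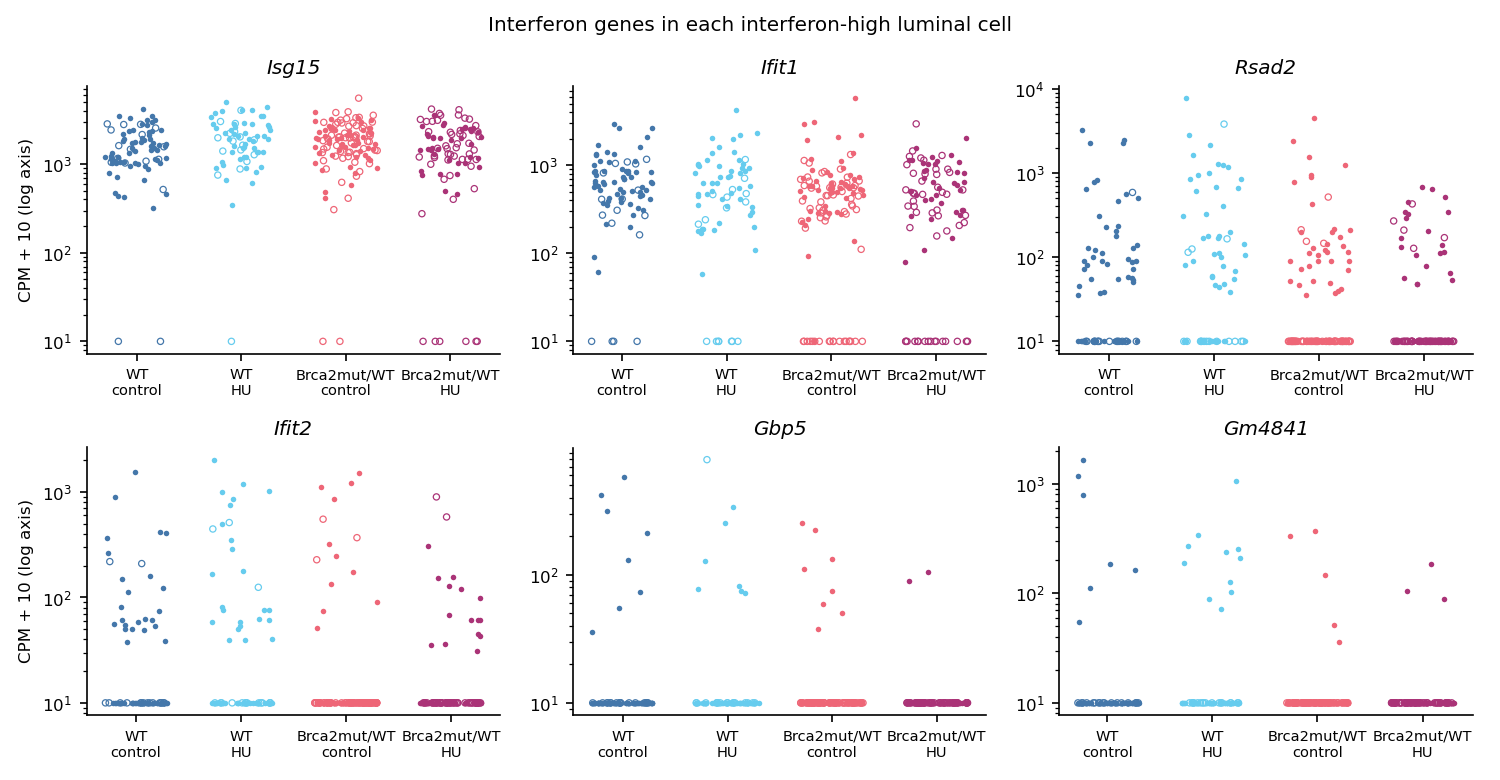
Each point is an interferon-high cell, with its level as CPM + 10 on a log axis, for Isg15, Ifit1, Rsad2, Ifit2, Gbp5 and Gm4841 in each library; filled points hold at least 10000 UMIs, open points fewer. Isg15 lies high in nearly all members, while Gbp5 and Gm4841 are at 0 in all but 26 members each.

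Across all genes, UMIs were summed over the members and over the interferon-low cells of each library and compared with edgeR's quasi-likelihood test with the library as a block, so that each gene was tested on 4 pairs of sums. The 5 genes of the rule were left out. Of 13344 genes, 681 rose (5.1%) and 583 fell (4.37%) at a Benjamini-Hochberg adjusted p under 0.05, and the median log2 fold change of all genes was -0.03. Of these, 208 rose by at least 1 and 163 fell by at least 1 on the log2 scale. A gene absent from the interferon-low cells could be tested only through its level in the members, so it had to come out higher. Counts of gene groups below therefore hold only genes with at least 0.461 CPM in the interferon-low cells of every library, the level the filter asked for, and none of the 4 markers. Of all 12863 such genes, 648 rose (5.04%) and 583 fell (4.53%).

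The comparison was repeated with 1 interferon-low cell for each member, of the same library and nearest in UMIs (depth-matched cells). Their median was 21210, 22101, 7259 and 6431 UMIs, against 21210, 22097, 7351 and 6240 in the members. Of 8653 genes 372 rose (4.3%) and 204 fell (2.36%), and 354 of the 681 risen genes were called again. Of the 681, 614 were tested there. For the 148 shallow members alone, 53 of 2101 genes rose (2.52%) and 83 fell (3.95%) against depth-matched cells. Depth, mitochondrial share and the number of cells differ between the classes, and the 204 deep members supplied most of the members' UMIs in each library, for example 1485806 of 1551115 in WT control.

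The antiviral effectors rose almost as a block. Of 38 genes counted, 34 rose and none fell, with a median log2 fold change of 1.54, and 36 of 38 rose against depth-matched cells. In the shallow members alone 13 of 19 rose. The summed level of the whole list, Rsad2 included, was 12743, 13782, 13030 and 12541 CPM in the members and 6214, 6466, 6288 and 6097 CPM in the interferon-low cells. The 3 IFIT genes and the 7 OAS genes counted rose. Ifit1 was at 831, 808, 756 and 633 CPM in the members and 119, 129.6, 122 and 135 CPM in the interferon-low cells, without overlap (log2 ratio 2.57 ± 0.24, SD, n = 4; edgeR's quasi-likelihood adjusted p = 2.57e-19). Isg15, named after its values were seen, was at 1689.8, 2147, 1949 and 1758 CPM against 409, 567, 469.9 and 507 CPM, a log2 fold change of 1.95 (edgeR adjusted p = 4.42e-41). Ifit3b was at 525, 523, 455 and 398 CPM against 52.8, 53.4, 53.5 and 57.6 CPM. Ifit1bl1, a less studied IFIT gene, was at 23.2, 11.3, 15.7 and 9.39 CPM and under 0.2 CPM in the interferon-low cells, where its passing of the filter was set by the members. These genes were higher in every library, and all but Isg15 were lowest in Brca2mut/WT HU.

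Among other effectors, Cmpk2, a mitochondrial nucleotide kinase beside Rsad2 on chromosome 12, was at 128, 164, 105 and 49.8 CPM in the members and 4.53, 5.19, 5.33 and 6.31 CPM in the interferon-low cells (log2 fold change 4.34, edgeR adjusted p = 0.0244). That call was lost in edgeR without WT control (adjusted p = 0.128), WT HU (0.106) or Brca2mut/WT control (0.158), although the groups did not overlap. Oasl1, an OAS-like protein without enzyme activity, was at 73.5, 93.0, 55.3 and 46.2 CPM against 5.99, 8.58, 5.37 and 7.27 CPM. Oas3, which makes the signal that activates RNase L, rose by 2.00 and Oasl2 by 1.51 on the log2 scale. Oas1a also passed, but 274 of the 511 windows of its end are shared with Oas1g, so its own level is uncertain. Ifi204, an interferon-inducible DNA-binding protein, was at 79.9, 109, 53.5 and 72.2 CPM against 9.12, 8.78, 7.72 and 6.86 CPM, and Ifi44l was at 38.7, 45.8, 50.6 and 52.7 CPM against 5.85, 5.58, 6.33 and 6.60 CPM. Oasl1, Ifi204 and Ifi44l all stood several-fold above the interferon-low cells in every library.

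The interferon-inducible GTPases gave the same picture, with 12 of 12 counted genes higher and a median log2 fold change of 2.55. Against depth-matched cells 12 of 12 rose. Iigp1, which breaks up the vacuoles of intracellular parasites, was at 479.7, 512, 534 and 437 CPM in the members and 60.9, 55.8, 54.7 and 64.9 CPM in the interferon-low cells (log2 ratio 3.03 ± 0.24, edgeR adjusted p = 2.3e-28). Gbp2b was at 251, 278, 168 and 121 CPM against 18.0, 17.7, 20.1 and 19.3 CPM (edgeR adjusted p = 0.0188), and its call was lost without WT control (adjusted p = 0.102), WT HU (0.0651) or Brca2mut/WT control (0.115). Gm4951 was at 49.6, 38.8, 43.0 and 40.5 CPM against 5.91, 4.70, 4.68 and 6.60 CPM. Iigp1 and Gm4951 were thus alike in the 4 libraries, while Gbp2b was lowest in Brca2mut/WT HU. Gbp4 and F830016B08Rik, not counted, had 20 and 40 UMIs over all members, with Gbp4 seen in 11 of them.

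Genes of the interferon signal itself rose less, with 9 of 15 counted genes higher, none lower and a median log2 fold change of 0.67. Usp18 was at 235, 273, 230.4 and 208 CPM against 44.1, 48.6, 45.8 and 46.5 CPM (edgeR adjusted p = 2.83e-36). Stat2 was at 45.1, 52.9, 46.5 and 24.6 CPM against 14.3, 14.1, 14.4 and 15.7 CPM. Usp18 and Stat2 were higher in every library, with the smallest gap in Brca2mut/WT HU. Irf7 was already abundant in the interferon-low cells, at 533, 556, 551 and 534 CPM, and reached 858, 1093, 1039 and 1035 CPM in the members, a log2 fold change of 0.88.

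The receptors showed no called difference. None of the 6 measured subunits passed the test, with a median log2 fold change of -0.07. Ifnar2 of the type I receptor was at 96.7, 104, 112 and 81.6 CPM in the members and 104, 94.97, 104 and 98.5 CPM in the interferon-low cells (edgeR adjusted p = 0.884). Ifnar1 was at 11.0, 8.46, 6.40 and 12.3 CPM against 11.4, 11.2, 11.1 and 10.6 CPM (edgeR adjusted p = 0.588), and the groups overlapped for both genes. For Ifngr1, Ifngr2, Ifnlr1 and Il10rb edgeR's adjusted p was 0.502, 0.96, 0.465 and 0.792, with log2 fold changes of -0.23, 0.01, 0.31 and -0.11. A miss at this threshold does not show equal levels.

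Interferon transcripts were seen in 2 members. A WT HU cell of 7647 UMIs held 109 UMIs of Ifnb1, the gene of interferon-beta, with 371 UMIs of Cxcl10 and 237 of Ccl5, chemokines that attract T cells, and 3792 CPM of Rsad2, but only 6 UMIs each of Epcam and Krt18 and 3 of the milk protein gene Csn3. A WT control cell of 25617 UMIs held 19 UMIs of Ifnb1, 15 of Ifnl2 and 5 of Ifnl3, the genes of type III interferons, with 36538 CPM of Csn3, 5 UMIs of Ccl5 and none of Cxcl10. The first cell had few luminal transcripts and the second many. Of the 8366 interferon-low cells, 1 held Ifnb1, with 2 UMIs. That cell, of Brca2mut/WT control with 16834 UMIs, held 238 UMIs of Cxcl10, 183 of Ccl5 and 2851 CPM of Rsad2 at 59.4 CPM of Ifit3, so Ifit3 did not mark it. In all 33268 cells Ifnb1 was in 18 with 263 UMIs, Ifnl2 in 8 with 84 and Ifnl3 in 7 with 44. Ifna1, Ifna2, Ifna4, Ifna5, Ifne, Ifnk, Ifng and Ifnz had no UMI in the members, and 0 of 352 cells allows a share of cells with a UMI of up to 0.852%, which is no limit on cells that express the gene, since 148 members were shallow. None of the 11 ligand genes passed the filter for the test.

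A list of nucleic acid sensors and genes linked to them rose in part, with 8 of 16 measured genes higher and none lower. Ifih1, which encodes the long double-stranded RNA sensor MDA5, was at 231, 257, 183 and 170.5 CPM in the members and 58.5, 61.0, 65.8 and 67.2 CPM in the interferon-low cells (log2 ratio 1.70 ± 0.36, edgeR adjusted p = 0.000147). Ddx58 (the sensor RIG-I) rose by 1.48, the endosomal receptor Tlr3 by 1.43 and the regulator Dhx58 by 1.42 on the log2 scale. These 4 recognise or regulate the recognition of RNA. The other risen genes of the list were Tlr2, Myd88, Samhd1 and Adar. The DNA-binding protein gene Ifi204, which also rose, was counted among the effectors. Mb21d1 and Sting1 were listed but not found under those names. Tlr7, Tlr9, Aim2 and Trex1 had no UMI in the members.

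Class I antigen presentation rose widely and by less than the effectors. Of 22 measured genes, 18 rose and 1 fell, with a median log2 fold change of 0.66 and the same counts against depth-matched cells, and their summed level was 11148, 12966, 11203 and 12037 CPM in the members against 8166, 8618, 7942 and 8027 CPM. Tap1, a subunit of the peptide transporter, was at 101, 146, 97.7 and 117 CPM against 44.3, 51.4, 47.0 and 50.7 CPM, and Psmb9, of the immunoproteasome, at 210.2, 228, 202 and 182 CPM against 85.9, 90.8, 89.7 and 84.8 CPM (edgeR adjusted p = 2.09e-19 and 1.24e-22). Nlrc5, the transactivator of class I genes, was at 8.38, 11.3, 8.73 and 10.8 CPM against 1.73, 1.84, 1.43 and 1.70 CPM. B2m, the light chain of class I, rose by 0.65 and H2-K1 by 0.60 on the log2 scale, and the chaperone gene Calr fell. Of 4 measured class II genes none rose, and H2-Ab1 fell, at 47.7, 47.9, 58.2 and 24.6 CPM against 74.4, 57.2, 88.8 and 53.2 CPM, where the groups overlapped; with the tag pools as blocks its adjusted p was 0.256. In the shallow members alone none of 14 class I genes was called in either direction against depth-matched cells, with a median log2 fold change of 0.27.

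**Figure D5:**
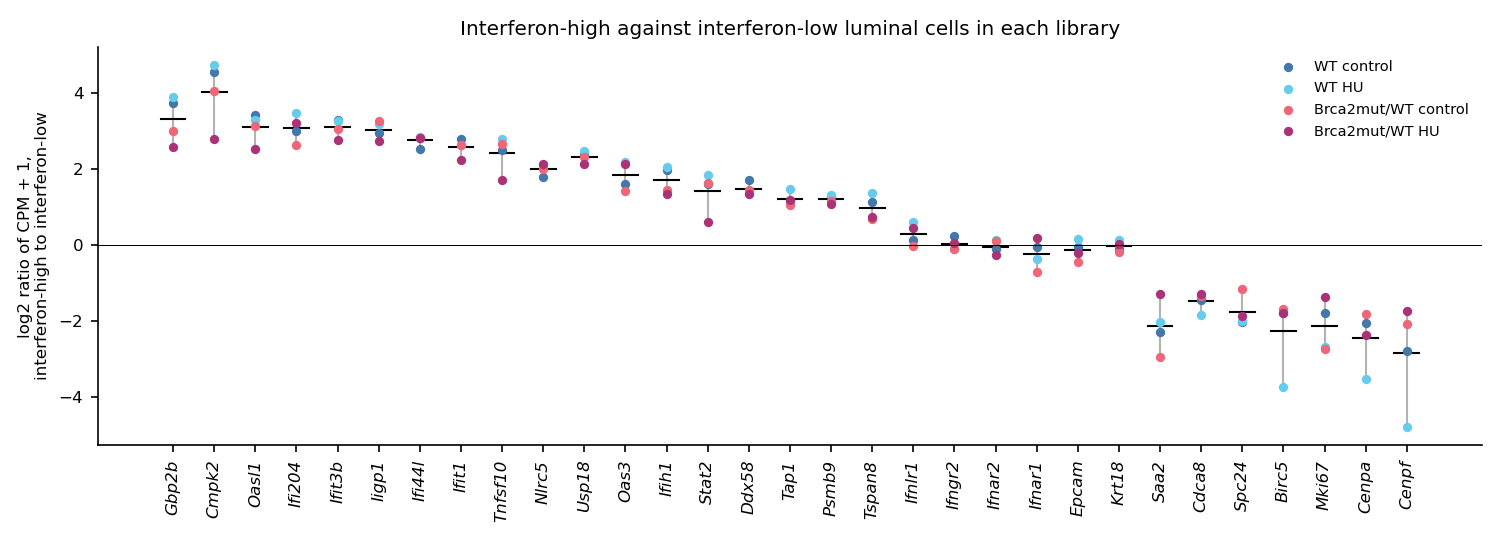
The 31 genes stand in a fixed order that is not sorted by ratio. Risen genes are at the left, receptors, Epcam and Krt18 in the middle, and fallen genes at the right. Each dot is the log2 ratio of CPM + 1 in interferon-high over interferon-low cells of 1 library. A dash gives the mean of the 4 libraries and a line their range. Cmpk2 and Gbp2b spread more between libraries than Ifit1 or Iigp1, the receptors Ifnar1 and Ifnar2 lie near 0, and Mki67 and Cenpa lie below 0 in all 4 libraries.

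Of 13 chemokines and cytokines counted, 4 rose and 2 fell. Tnfsf10, which encodes the death ligand TRAIL, was at 59.3, 78.2, 76.2 and 34.0 CPM in the members and 9.74, 10.5, 11.2 and 9.59 CPM in the interferon-low cells (edgeR adjusted p = 1.6e-19), without overlap. Ccl2, a monocyte chemokine, had 76 UMIs in the members, of which 64 (84.2%) came from 1 WT HU cell. Cd274, the checkpoint ligand PD-L1, had 20 UMIs in 13 members and was at 5.16, 3.52, 2.33 and 2.17 CPM, against 0.321, 0.221, 0.336 and 0.168 CPM. Neither was counted. Cxcl10 had 582 UMIs in 14 members, of which the cell with Ifnb1 held 63.7%, and did not pass (edgeR adjusted p = 0.567), nor did Ccl5 with 550 UMIs in 15 members (adjusted p = 0.435). The UMIs of Ccl2, Cxcl10 and Ccl5 were thus held by few cells. Csf3, the granulocyte growth factor gene, fell, at 3.22, 2.11, 4.65 and 5.06 CPM against 12.8, 22.6, 17.3 and 7.36 CPM (edgeR adjusted p = 5.76e-07). Of 15 genes of the NF-kB response 3 rose and 1 fell, and against depth-matched cells 1 of 11 rose and none fell. Of these, Rela and Ripk2 lost the call there, with log2 fold changes of 0.33 against 0.43 and 0.70 against 0.74 (edgeR adjusted p = 0.385 and 0.101). Of 13 antimicrobial and acute phase genes counted none rose and 2 fell, and against depth-matched cells 1 of 11 rose and 1 fell. Saa2, a serum amyloid gene, was at 11.0, 14.8, 4.65 and 24.6 CPM against 57.5, 63.5, 42.7 and 60.9 CPM (edgeR adjusted p = 4.45e-06), a log2 fold change of -2.09, which was -1.87 and not called against depth-matched cells (edgeR adjusted p = 0.462). Csf3 and Saa2 were lower in the members of every library.

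The members held less RNA of mitosis. Of 24 measured genes of G2 and mitosis, 19 fell and none rose, with a median log2 fold change of -1.78, and their summed level was 108, 86.7, 137 and 129 CPM against 360.3, 378, 451 and 275 CPM. Mki67, a proliferation marker, was at 7.74, 3.52, 4.65 and 7.95 CPM in the members and 29.1, 27.8, 36.5 and 22.02 CPM in the interferon-low cells (log2 ratio -2.14 ± 0.67, edgeR adjusted p = 3.77e-13). Cenpa, the histone variant of centromeres, was at 5.80, 1.41, 8.73 and 3.61 CPM against 27.2, 26.7, 33.0 and 22.6 CPM (edgeR adjusted p = 1.69e-13), and Birc5, survivin, at 8.38, 2.11, 11.6 and 7.95 CPM against 31.6, 40.1, 39.5 and 29.8 CPM. Each of the 3 genes was lower in all 4 libraries without overlap. Against depth-matched cells 9 of 12 fell. Among cells of at least 10000 UMIs 23 of 24 fell, where 532 of all 13296 genes fell (4%) and 694 rose (5.22%). Cenpf, of the outer kinetochore, fell by 2.74 on the log2 scale (edgeR adjusted p = 0.00129) and by 2.46 against depth-matched cells (edgeR adjusted p = 5.51e-05). In S phase 1 of 24 genes fell, the nucleotide reductase subunit Rrm2 by 0.90 on the log2 scale, and among cells of at least 10000 UMIs 4 of 24 fell, Rrm2 by 1.74. Without WT HU the log2 fold change of Rrm2 over all cells was -0.63 and was not called. Pcna, the clamp of the replication polymerases, was at 28.4, 41.6, 36.7 and 41.9 CPM against 38.1, 39.2, 36.2 and 33.7 CPM, with overlap. Of 19 measured p53 targets 1 rose and 1 fell, near the shares over all genes counted (5.04% and 4.53%). The rise was of Plk2, by 0.27 on the log2 scale. Against depth-matched cells its log2 fold change was 0.26 and was not called (edgeR adjusted p = 0.148). The fall was of Perp, with log2 fold changes of -0.41, and -0.55 against depth-matched cells (edgeR adjusted p = 0.000705 and 0.00438). With the tag pools as blocks Perp was not called (edgeR adjusted p = 0.0697).

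Of the luminal genes, Krt18, Epcam and Csn3 overlapped between the classes, and a few others rose. Krt18 was at 1877, 2275, 1892 and 2065 CPM in the members and 2002, 2062, 2154 and 2023 CPM in the interferon-low cells, Epcam at 1751, 1713, 1251 and 1310.5 CPM against 1805, 1534, 1692 and 1508 CPM, and Csn3 at 20858, 20087, 16186 and 16876 CPM against 21617, 18702, 19367 and 20302 CPM. None of the 3 was called (edgeR adjusted p = 0.792, 0.606 and 0.502), which does not show equal levels. The shallow members alone held less Csn3, at 12219, 8045, 6604 and 7837 CPM, against 21238, 20779.6, 17716 and 18431 CPM in the deep ones. Of 12 genes of simple epithelia 1 rose, the transcription factor gene Ehf, by 0.33 on the log2 scale; among cells of at least 10000 UMIs 4 rose, and in the shallow members alone 2 of 8 fell against depth-matched cells. The Ehf call was lost against depth-matched cells (edgeR adjusted p = 0.202) and without Brca2mut/WT control. Of 17 alveolar luminal genes 2 rose and none fell. Tspan8, a tetraspanin of HR- luminal cells, was at 159.9, 209, 108 and 133 CPM against 72.8, 79.5, 66.9 and 79.3 CPM (log2 ratio 0.98 ± 0.33, edgeR adjusted p = 2.23e-06), and Lipa, the lysosomal acid lipase, rose by 0.73 on the log2 scale. Of 9 genes of hormone-responsive (HR+) luminal cells 1 fell, Cited1, and of 13 basal genes 3 fell, Trp63, Pdpn and Tagln, though Krt14 and Areg limits were part of the choice. With the tag pools as blocks Trp63 was not called (log2 fold change -0.71 against -0.85, edgeR adjusted p = 0.161), and Pdpn and Tagln did not pass the filter. The call of Trp63 was also lost without WT HU or Brca2mut/WT control, and that of Pdpn without Brca2mut/WT HU.

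Immune markers were at or near 0 in the members. Of 14 macrophage and dendritic markers 11 were at 0, Ptprc and Lyz2 among them, and the list summed to 3.87, 1.41, 2.91 and 1.44 CPM in the members against 3.15, 3.51, 2.84 and 2.33 CPM in the interferon-low cells, with Cd68 the most abundant. Of 15 lymphoid markers 14 were at 0 and the other was Trac. The 12 stromal and endothelial markers summed to 10.3, 72.6, 6.40 and 3.61 CPM against 13.2, 7.32, 10.5 and 6.09 CPM, with 6 at 0. The high value in WT HU was Dcn, of which 93 of 94 UMIs came from 1 cell. Only 1 macrophage and dendritic gene, 5 stromal and endothelial genes and no lymphoid gene passed the filter for the test, and none was called. Most of these markers were thus not tested. The immediate early genes, which dissociation can induce, had 2 of 15 higher, Jund and Ier2, and none lower. With the tag pools as blocks neither was called (log2 fold changes 0.22 and 0.16 against 0.25 and 0.20, edgeR adjusted p = 0.205 and 0.116). Nor was either called against depth-matched cells (log2 fold changes 0.23 and 0.14, edgeR adjusted p = 0.0563 and 0.365). Of 14 hypoxia genes none rose and 6 fell, while 3 fell against depth-matched cells; with the tag pools as blocks 1 rose and none fell, and the median log2 fold change went from -0.20 to 0.01. All 9 mitochondrial RNAs fell, with a median log2 fold change of -0.17, and none was called against depth-matched cells (median -0.05), while in the shallow members alone 7 of 9 fell against depth-matched cells (median -0.96); the mitochondrial share was also part of the choice.

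High Ifit3 was not limited to these luminal cells. Among cells with at least 300 CPM of Krt14, 78 of 2827 (2.76%) held at least 1000 CPM of Ifit3, and 9 of 2281 (0.395%) of those with at least 10000 UMIs. By library the shares were 2.33%, 1.08%, 5.77% and 4.64%, and 0.539%, 0.114%, 0.896% and 0.306% in deep cells. Among cells with at least 300 CPM of Areg they were 1 of 159 (0.629%), 1 of 141 (0.709%), 4 of 113 (3.54%) and 8 of 112 (7.14%). For the deep cells of that class they were 0 of 141, 1 of 129 (0.775%), 0 of 102 and 4 of 83 (4.82%). Among cells with at least 50 CPM of Tmigd1 and Sez6 together, which the choice left out, the shares were 46 of 662 (6.95%), 7 of 287 (2.44%), 237 of 1082 (21.9%) and 193 of 644 (30.0%), and for deep cells 7.003%, 1.44%, 18.4% and 27.8%. That luminal group thus held larger shares than the luminal cells of the choice in 3 libraries, beyond the intervals, over all cells and over deep ones. In WT HU the intervals overlapped, and its deep share (4 of 277 cells) lay below the 1.70% of the deep luminal cells. Its Ifit3-high cells had less of the rare markers. Their Ifit2 was at 13.0, 0, 18.5 and 24.5 CPM and their Gm4841 at 1.62, 0, 2.05 and 3.44 CPM, below the members in every library, although for Ifit2 in Brca2mut/WT HU the interval (20.2 to 29.4 CPM) held the members' value, and the 7 cells of WT HU allow up to 18.9 CPM. Their Isg15 was at 1549, 1390, 1602 and 1850 CPM, below the members in 3 libraries and above them in Brca2mut/WT HU. When as many luminal cells were chosen by the summed CPM of Ifit1, Ifit2, Ifit3b, Rsad2 and Isg15 in place of Ifit3, 74, 84, 120 and 74 cells were taken (2.09%, 2.65%, 4.78% and 3.51%), of which 161 were among the 352 members (45.7%).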

How the data were processed

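Organoids were dissociated and single-cell libraries were made with the 10x Chromium kit. Per the labels, the authors used Cell Ranger 6.0.2 on mm10 and Seurat 4.0 in R 4.1.3, while the matrix headers name Cell Ranger 6.1.1. The deposited values are raw counts, whole UMIs per gene and cell without normalization, for genes and 4 antibody tags. The tags were left out of gene totals. The members, the lists of genes and the alternatives were chosen with earlier results of these data known.

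The rule was applied to each cell in Python 3.11.15. A cell had a single tag when it held at least 50 tag UMIs with at least 80% on 1 tag. UMIs were summed for each class and library and tested in R 4.3.3 with edgeR 4.0.16 (filterByExpr, TMM, quasi-likelihood F test, library as block, 8 sums, Benjamini-Hochberg over all genes tested, threshold 0.05). The labels do not say that libraries come from separate animals, so p-values measure the spread between these 4 libraries. The genes Ifit3, Krt14, Areg, Tmigd1 and Sez6 were kept in the totals behind CPM and left out of the test and its library sizes. The same cells were chosen and tested, so the p-values describe genes that go with Ifit3 among these cells. Counts of 13169 genes were simulated for this comparison. Of 50 genes raised by 1 on the log2 scale 47 were called, and of 50 lowered by 1, 44. Of 12969 unchanged genes 14 were called. The changed genes were drawn only from those well above the filter's level in the interferon-low cells. Recovery of scarcer genes was thus not measured. Genes named were the markers, up to 4 called genes of each list with the largest changes, the 10 largest rises and falls in all 4 libraries with at least 20 CPM, and the interferon ligands and receptors. Other genes (Isg15, Irf7, B2m, H2-K1, Cxcl10, Ccl5, Csn3, Malat1, Calr) were chosen after their values were seen. Ratios within a library used CPM + 1. The depth-matched comparison drew 1 interferon-low cell per member, of the same library, nearest in UMIs and used once. DESeq2 1.42.0, other limits, tag pools as blocks and leaving out each library were alternatives. No doublet caller was run. Shared ends of genes were compared in windows of 90 bases over the last 600 bases of transcripts. A gene that the rule for named genes would give is not reported here.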

Additional observations from a re-analysis of the deposited data

Results flagged for a closer look

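Of 76 quantities given for 4 libraries, 2 had a library that lay apart from the other libraries by more than the 95% limit of Dixon's test, which chance gives in about 1 of 20. The log2 ratio of Birc5 in interferon-high over interferon-low cells was -3.72 in WT HU and -1.80 to -1.68 in the other libraries. That of Ifi44l was 2.53 in WT control and 2.82 to 2.83 in the others. Both genes kept their direction in each of the 4 libraries.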

How the results depend on the processing

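The class is a slice of a range, so its size followed the limits. There were 1515 members at an Ifit3 limit of 500 CPM, 81 at 2000 CPM, 216 with a single tag and 204 with at least 10 Ifit3 UMIs and 10000 UMIs, against 352. The shares were 11.9%, 11.9%, 15.9% and 15.1% at 500 CPM and 0.479%, 0.505%, 1.24% and 0.807% at 2000 CPM. In Brca2mut/WT control and Brca2mut/WT HU they fell to 2.59% and 2.50% in single-tag cells, 2.42% and 2.03% in cells of at least 10000 UMIs, and 3.73% and 3.27% with no upper limit on genes and under 10% mitochondrial UMIs. Genes higher numbered 1561 at 500 CPM, 384 at 2000 CPM, 1056 with no upper limit on genes and under 10% mitochondrial UMIs, 372 against depth-matched cells and 53 in members under 10000 UMIs against depth-matched cells, where 2101 genes were tested, against 681; leaving out a library gave 511 to 610. Genes lower numbered 1433, 290, 1077, 204 and 83 in the same order, 260 with DESeq2 and 274 with tag pools as blocks, against 583; leaving out a library gave 341 to 500, with 341 without Brca2mut/WT control and 388 without Brca2mut/WT HU. Fewer genes were tested against depth-matched cells; otherwise the cause was not tested. With 5 interferon-low cells per member, which in the Brca2mut/WT libraries were deeper than the members (medians of 16799 and 17187 UMIs), 567 rose and 389 fell, and for members under 10000 UMIs 144 and 272. These comparisons by depth were added after the data were seen. Of the values of named genes with DESeq2, tag pools as blocks, depth-matched cells and each library left out, 514 kept direction and call, 78 lost the call, 1 gained it and 0 reversed; the other limits were not run gene by gene. The main test holds the library as a block. No paired analysis was possible because the labels give no replicate numbers that pair samples between libraries. With 6 Gbp5 and 12 Gm4841 UMIs among the members of Brca2mut/WT HU, levels of these genes there are imprecise.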

Other observations

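A further cell with interferon transcripts lay outside the limits of the choice. A Brca2mut/WT HU cell of 89064 UMIs held 77 UMIs of Ifnb1, 53 of Ifnl2 and 30 of Ifnl3, with 603 of Cxcl10, 992 of Ccl5 and 4345 CPM of Ifit3. Of the 18 cells with Ifnb1, 11 lay outside the limits on genes and mitochondrial share, with 103 of the 263 UMIs. A cell with at least 300 CPM of Krt14 held 19 UMIs of Ifnb1. Ptprc and Lyz2 had no UMI in the 25 cells with a UMI of Ifnb1, Ifnl2 or Ifnl3. Cd68, another macrophage marker, had 1 UMI in the cell of 89064 UMIs and 1 in the Krt14 cell with 19 UMIs of Ifnb1. It had 4 UMIs in a WT HU cell with 14 of Ifnb1, and 1 in a Brca2mut/WT HU cell with 5 of Ifnb1.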
